A study of Mus musculus with 2 samples.

Results

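The Ikaros family comprises Ikzf1 (Ikaros), Ikzf2 (Helios), Ikzf3 (Aiolos), Ikzf4 (Eos) and Ikzf5 (Pegasus), 5 zinc-finger transcription factor genes. They were taken by gene symbol from the deposited table of 55246 loci, and all 5 were found, each at 1 locus. The table holds RNA-seq read counts of regulatory T cells (Treg cells, suppressive CD4 T cells that need Foxp3) from the lamina propria of the colon, the connective tissue under the gut epithelium. There were 2 groups, both of female mice: WT, and Exon2KO, in which Foxp3 lacks exon 2 (Foxp3∆2 in the title of the series), with 1 library each. Strain, age, zygosity, the sorting scheme and the number of mice behind a library are not given in the sources used here. No value below has a replicate check, and every interval covers counting error only. The comparison addresses how the Ikaros family differs between colonic Treg cells with and without this part of Foxp3.

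Ikaros proteins bind DNA through a cluster of C2H2 zinc fingers near the amino terminus, and pair with one another through fingers at the carboxyl terminus. They recruit chromatin complexes, among them the NuRD and Sin3 corepressors, and act in lymphocytes mostly as repressors, although activation has also been described. Helios is found in most Treg cells that arise in the thymus, while many colonic Treg cells induced by the microbiota lack it. Eos is known as a partner of Foxp3 in gene silencing, and Aiolos is known from B cells and from T helper 17 cells, where it silences Il2.

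The coding sequence at the second match of a zinc-finger pattern shows how alike the members are, and whether their reads can be told apart. The sequences below run from the first cysteine codon to the last histidine codon and come from the GENCODE M21 transcripts with the longest coding sequence (GRCm38, reference genome). Capitals mark bases that differ from Ikzf2.
Ikzf2: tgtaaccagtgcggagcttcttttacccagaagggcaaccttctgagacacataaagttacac
Ikzf4: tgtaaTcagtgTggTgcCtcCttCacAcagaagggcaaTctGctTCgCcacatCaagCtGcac
Ikzf3: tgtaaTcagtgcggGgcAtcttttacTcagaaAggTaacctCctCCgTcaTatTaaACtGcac
Ikzf1: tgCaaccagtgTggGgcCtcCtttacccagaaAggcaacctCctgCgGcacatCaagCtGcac
Ikzf5: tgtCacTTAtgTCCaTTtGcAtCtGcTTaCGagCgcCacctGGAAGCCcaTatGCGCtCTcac
The Ikzf2 stretch lies at chr1:69570581-69570643 on the minus strand, within 1 exon, and the Ikzf3 stretch at chr11:98488940-98489002 on the minus strand. Of the 63 bases, 15 differ from Ikzf2 in Ikzf4, 15 in Ikzf3, 12 in Ikzf1 and 33 in Ikzf5. The encoded finger of 21 residues is the same in Ikzf1, Ikzf2, Ikzf3 and Ikzf4, whereas 16 residues differ in the second match of Ikzf5. The finger pattern was matched 5 times in the coding sequence of Ikzf1, Ikzf2, Ikzf3 and Ikzf4 and 4 times in that of Ikzf5. With fewer matches, the second match of Ikzf5 may not be the counterpart of the second finger in the others. Its differences from Ikzf2 may therefore be overstated. A fixed pattern can miss fingers of other spacing, so these matches do not give the number of fingers. Over all annotated transcripts, no window of 50 bases was shared between any pair of members. The longest exact match was 32 bases, between Ikzf2 and Ikzf4. Reads longer than this that map exactly can therefore be told apart between the members, although the read length is not given in the sources used here.

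Reads assigned to genes numbered 16281133 in WT and 15412425 in Exon2KO, and a count of 0 allows up to 1.84e-05% and 1.95e-05% of the reads (3 reads). Levels are given as CPM, a gene's counts as parts of the library size after TMM scaling (per 1000000), a method that balances most genes between libraries. Ratios are Exon2KO over WT on the log2 scale with a prior count of 2, with 95% Clopper-Pearson intervals. A gene was called when its ratio was at least 2-fold, a description of these 2 libraries and not a test of the genotypes. Foxp3 itself had 445 CPM in WT and 1310 CPM in Exon2KO, and a count over the whole gene does not check the deletion of 1 exon. The T cell genes Cd3e, Cd3d and Cd3g had log2 ratios between -0.25 and 0.00. Of 10 T cell genes, 1 (Cd5) was called lower and none higher, with summed levels of 5612 and 4731 CPM.

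Markers of other cells were present. As a background for the counts of called markers, 8.14% of all 17363 tested genes were called lower and 9.38% higher. Tested genes are those with 10 reads or more in both libraries together. The summed level of 10 plasma cell genes was 63213 CPM in WT and 54185 CPM in Exon2KO, with 1 gene (Sdc1) called higher and none at 0. That of 11 B cell genes was 432 and 155 CPM, with 5 of 9 tested genes called lower, none called higher and none at 0. Of 9 tested CD8 and NK cell genes, 3 were called lower and 2 higher (427 and 75.6 CPM in sum, with Ncr1 at 0 in WT and Eomes at 0 in Exon2KO). Gzma made up most of that sum in WT, at 328 and 10.3 CPM, and Ighm most of the B cell sum, at 291 and 53.6 CPM. Of 8 gamma-delta T cell genes, 6 were called higher and 1 lower (14.0 and 84.3 CPM). Of 12 epithelial genes, 9 were called higher (82.9 and 404 CPM, with Fabp2 at 0 in WT). The summed level of 14 myeloid genes was 47.1 and 56.2 CPM, with S100a8, S100a9, Itgax and Mrc1 at 0 in 1 or both libraries and 1 of 8 tested genes (Csf1r) called lower. The part of these cells in the results below was not tested.

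Helios and Eos were lower in the Exon2KO library, Aiolos was higher, and Ikaros and Pegasus differed by less than 2-fold. Thus 3 of the 5 members were called, 2 lower and 1 higher. Over all 17363 tested genes, those with 10 reads or more in both libraries together, 17.5% were called (8.14% lower and 9.38% higher), and over the 4740 genes with at least 1000 reads, 4.73% (3.14% lower and 1.58% higher). The members have 46 to 8987 reads in a library, so both shares are relevant.

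**Figure D1:**
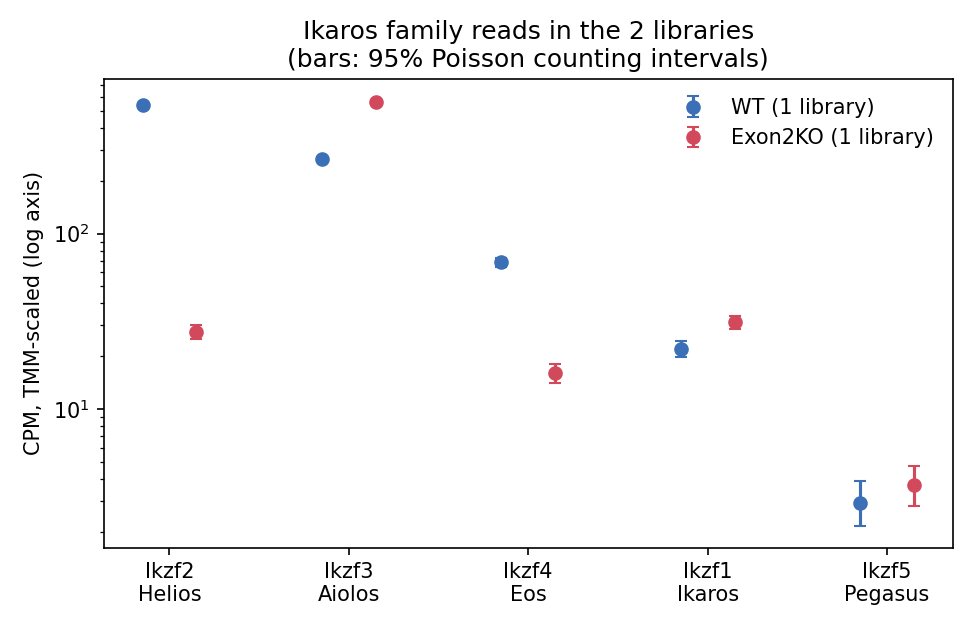
CPM of the 5 members (log axis) in the WT library (blue) and the Exon2KO library (red), 1 library each, with 95% Poisson counting intervals. Ikzf2 goes from 540 to 27.5 CPM and Ikzf4 from 68.6 to 16.01 CPM, while Ikzf3 goes from 266 to 562 CPM.

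Ikzf2 (ENSMUSG00000025997, GRCm38 chromosome 1, 69531214 to 69687245, minus strand), which encodes Helios, had 8476 reads in WT and 440 in Exon2KO. These counts correspond to 540 CPM (95% Poisson interval 529 to 552) and 27.5 CPM (25.01 to 30.2). The Exon2KO library thus held 5.12% of the WT level, a log2 ratio of -4.29 (-4.44 to -4.16). In a bulk sample, fewer cells that express a gene and less RNA per cell cannot be told apart. By level per length, Ikzf2 ranked 1122 among 12853 protein-coding genes in WT and 7160 in Exon2KO.

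Ikzf4 (ENSMUSG00000002578, chromosome 10, 128630843 to 128645991, minus strand), which encodes Eos, had 1077 reads in WT and 256 in Exon2KO. Its level was 68.6 CPM (64.6 to 72.8) and 16.01 CPM (14.1 to 18.1). The log2 ratio was -2.09 (-2.30 to -1.90), which left 23.5% of the WT level. Helios and Eos were thus lower in the same library, but to unequal extents. For every 100 reads of Ikzf4 there were 787 reads of Ikzf2 in WT and 172 in Exon2KO, a log2 change of -2.20 (-2.44 to -1.95) that does not use the library scaling.

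Ikzf3 (ENSMUSG00000018168, chromosome 11, 98464902 to 98546031, minus strand), which encodes Aiolos, had 4179 reads in WT and 8987 in Exon2KO. Its level was 266 CPM (258 to 274) and 562 CPM (551 to 574), a 2.11-fold higher level in Exon2KO and a log2 ratio of 1.08 (1.02 to 1.13). Its rank by level per length moved from 1620 to 807. Aiolos was the only member called higher, and its ratio lies just past the 2-fold threshold. Between members, the contrast of Helios and Aiolos was the widest of the 10 pairs. In WT there were 203 reads of Ikzf2 per 100 reads of Ikzf3, and in Exon2KO 4.90, a 41.4-fold change (log2 -5.37, -5.52 to -5.22) that is again free of the scaling.

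Ikzf1 (ENSMUSG00000018654, chromosome 11, 11685003 to 11772926, plus strand), the founding member Ikaros, had 347 and 499 reads, or 22.1 CPM (19.8 to 24.6) and 31.2 CPM (28.5 to 34.1). Its log2 ratio was 0.49 (0.30 to 0.70), above 0 by more than counting error but short of 2-fold. Ikzf5 (ENSMUSG00000040167, chromosome 7, 131388652 to 131410521, minus strand), which encodes Pegasus, had 46 and 59 reads, too few to detect a difference at this depth (0.32, -0.25 to 0.92). Exons of Pstk on the opposite strand cover 81.3% of the exonic bases of Ikzf5, and the use of strand in counting is not given in the sources used here. The Ikzf5 values are therefore uncertain. Pstk itself had 204 and 180 reads.

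The ratios above assume that TMM balances the libraries. Counted instead against the reads of Cd3e, Cd3d and Cd3g, Ikzf2 had 293 reads per 1000 of these in WT and 16.6 in Exon2KO. On this scale Ikzf4 had 37.2 and 9.66, Ikzf3 145 and 339, Ikzf1 11.999 and 18.8, and Ikzf5 1.59 and 2.23. The direction of each member was as with TMM.

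The authors' deposited table gives log2 fold changes of -4.29 for Ikzf2, -2.10 for Ikzf4 and 1.08 for Ikzf3, with adjusted p-values of 8.71e-17, 0.000122 and 0.133. An exact test in edgeR needs a value for the biological coefficient of variation (BCV), which is how far samples of 1 group differ relative to their mean. At an assumed BCV of 0.4, the adjusted p from that edgeR test was 0.0022 for Ikzf2, 0.413 for Ikzf4 and 1 for Ikzf3. At 0.2 the adjusted p from edgeR was 6.74e-17 for Ikzf2, 9.46e-05 for Ikzf4 and 0.107 for Ikzf3. The spread between samples cannot be measured here, so these p-values rest on assumptions, and the calls of Ikzf2, Ikzf3 and Ikzf4 alike rest on the fold in these libraries alone.

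Levels were next compared between the members as CPM per kilobase of gene length, using the deposited length, which equals the exonic length in GENCODE M21 for all 5. In WT the order was Helios at 46.5, Aiolos at 30.4, Eos at 11.4, Ikaros at 3.83 and Pegasus at 0.512 CPM per kilobase. In Exon2KO it was Aiolos at 64.2, Ikaros at 5.40, Eos at 2.67, Helios at 2.37 and Pegasus at 0.645. Helios thus went from the first to the fourth place and Aiolos from the second to the first. As a share of the summed family level per length, Helios held 50.2% in WT (95% interval from counting errors, 49.3 to 51.0) and 3.15% in Exon2KO (2.87 to 3.45). Aiolos held 32.8% (32.01 to 33.6) and 85.3% (84.5 to 86.0), Eos 12.3% (11.7 to 13.0) and 3.55% (3.15 to 3.997). Ikaros held 4.13% (3.73 to 4.57) and 7.17% (6.60 to 7.80). In Exon2KO the intervals of Eos and Helios overlapped, so their order there is not resolved, whereas no other neighbours in either order had overlapping intervals. The summed level per length was 92.7 in WT and 75.3 in Exon2KO, or 81.2% of WT, so the composition of the family differed far more than its total.

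**Figure D2:**
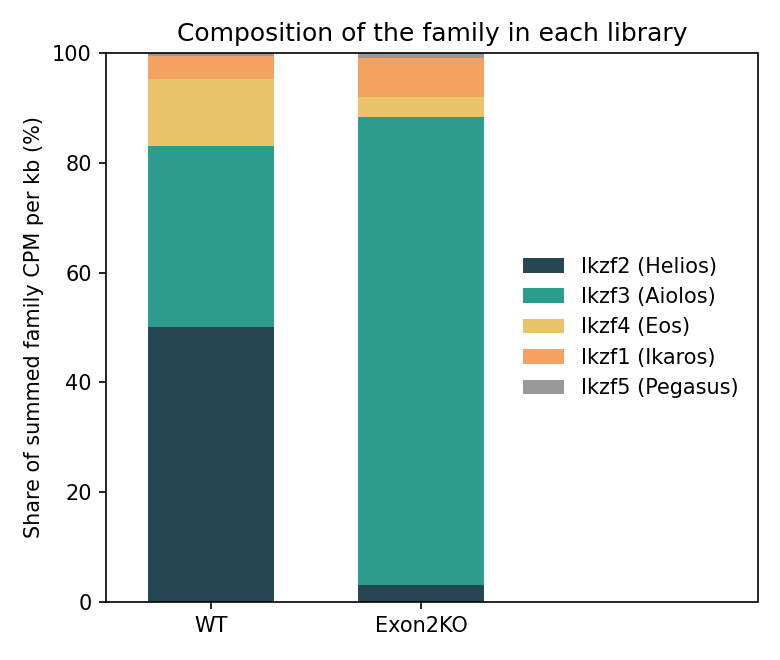
Share of each member in the summed CPM per kilobase of the 5 genes (stacked to 100%) in the WT and Exon2KO libraries. Helios makes up 50.2% in WT and 3.15% in Exon2KO, and Aiolos 32.8% and 85.3%.

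Loci inside and beside the genes were counted separately from them. Gm29112 and Gm28112 are annotated as intronic transcripts on the same strand as Ikzf2, and neither shares a base with its exons. Gm29112, which lies 88.7 to 92.2 kb downstream of the Ikzf2 start, had 324 reads in WT and 14 in Exon2KO, which gives -4.37 (-5.45 to -3.79) on the log2 scale. Gm28112, which lies 25.2 to 27.1 kb downstream, had 141 and 10 reads, at -3.60 (-4.94 to -2.92). Both intervals hold the ratio of the Ikzf2 exons. Reads of a separate intronic transcript and of unspliced Ikzf2 RNA cannot be told apart in such counts. Gm29114, annotated antisense across the end of Ikzf2, had 28 reads and 1 read, with an interval of the log2 ratio from -10.19 to -2.24. It shares 144 exonic bases with Ikzf2, so its reads are uncertain. An unnamed locus outside Ensembl on the same strand, 17673 bases beyond the end of Ikzf2, had 28 reads in WT and 0 in Exon2KO. Against 3 reads in Exon2KO its level would be 9.51-fold lower, which leaves out the counting error of the 28 reads. With that error included, the limit of its 95% interval nearer to 0 was -2.85 on the log2 scale. All 4 loci were thus called lower with Ikzf2.

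Protein-coding neighbours of Ikzf2 were distant. Lancl1, 2492342 bases away, had 1005 and 974 reads (log2 ratio -0.07, -0.20 to 0.06), and Bard1, 1340253 bases away on the other side, had 27 and 39 reads (0.47, -0.24 to 1.27). Neither was called.

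For Ikzf3, the small nuclear RNA locus Gm25106, which lies in an intron, had 16 reads in WT and 74 in Exon2KO, and its log2 ratio was 2.05 (1.39 to 3.06). An unnamed locus on the opposite strand, 3336 bases from the start of Ikzf3, had 35 and 72 reads (0.97, 0.41 to 1.64). Grb7, which encodes a signalling adaptor and lies 9529 bases past the end of Ikzf3, had 1015 and 1855 reads, at 0.84 (0.73 to 0.96). Zpbp2, 5066 bases from the start, had 48 and 61 reads (0.31, -0.25 to 0.90). The loci around Ikzf3 were all higher in Exon2KO, the interval of Zpbp2 included 0, and only Gm25106 was past 2-fold.

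**Figure D3:**
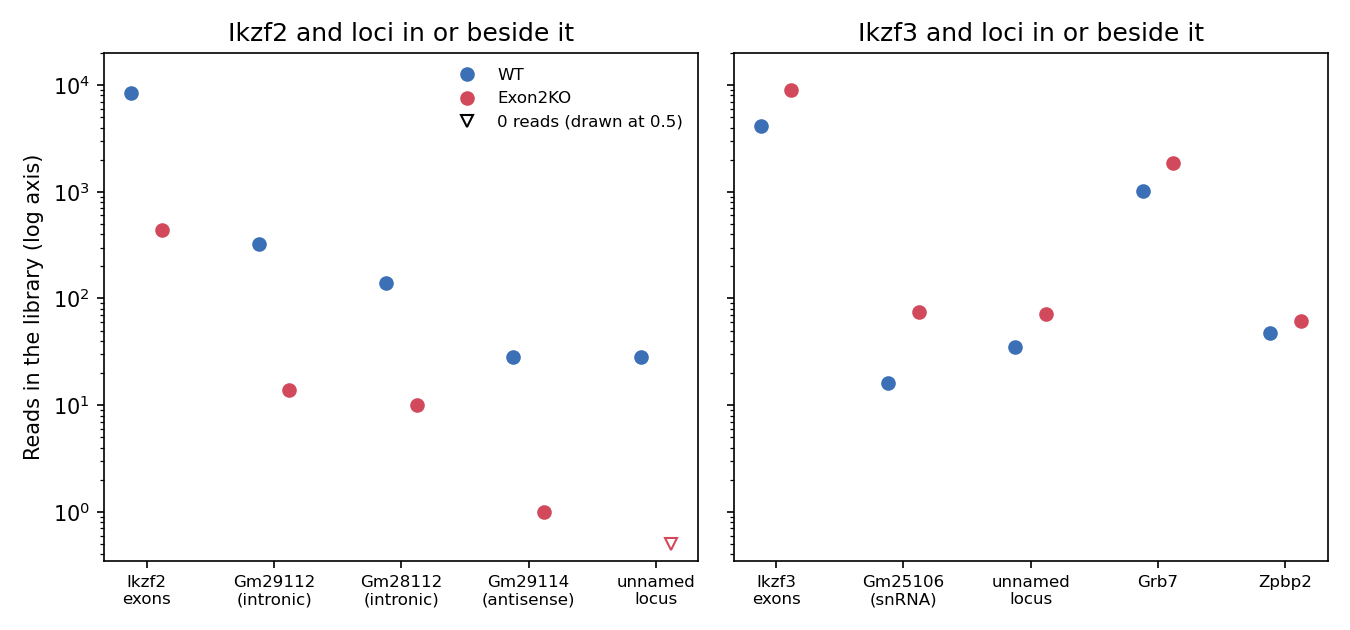
Reads (log axis) in the WT library (blue) and the Exon2KO library (red) for Ikzf2 and Ikzf3 and for loci inside or beside them, with an open triangle for 0 reads. The 4 loci at Ikzf2 are lower in Exon2KO, for example Gm29112 with 324 and 14 reads, and the 4 loci at Ikzf3 are higher. Of those at Ikzf3, only Gm25106 passes 2-fold, and the interval of the Zpbp2 ratio includes 0.

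Beside Ikzf4, the genes on both sides did not share its ratio. Rps26, a ribosomal protein gene 4096 bases from the end of Ikzf4, had 2235 and 2741 reads (0.27, 0.19 to 0.35). Suox, 23903 bases from its start, had 282 and 222 reads (-0.37, -0.63 to -0.11). Fignl1, which lies 14505 bases past Ikzf1, had 47 and 50 reads (0.06, -0.54 to 0.67). On the other side of Ikzf1, Zpbp, at 222595 bases, was called lower, with 56 and 25 reads (-1.13, -1.93 to -0.49). Next to Ikzf5, Acadsb had 219 and 130 reads (-0.77, -1.10 to -0.46) and 2310057M21Rik 197 and 217 reads (0.11, -0.17 to 0.40).

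The deposited table marks genes by transcription factor family. Among 923 other tested genes so marked, 71 were called higher and 64 lower (14.6%), with a median log2 ratio of 0.01, and none had a ratio below that of Ikzf2. The lowest of them was Nr4a2, an orphan nuclear receptor, at -3.23. A ratio below that of Ikzf4 was found for 15 of the 923 genes and one above that of Ikzf3 for 65. At 1000 reads or more, 2 of 244 lay below Ikzf4 and 9 above Ikzf3. Of 407 other tested genes marked as C2H2 zinc fingers, 27 were called higher and 25 lower (12.8%), none lay below Ikzf2 and 5 lay below Ikzf4. At 100 reads or more in sum, 264 of these remained, of which 6 were called higher and 3 lower (3.41%) and none lay below Ikzf4. Only 1 of the 407 had more CPM in WT than Ikzf2. Of 4495 other protein-coding genes with at least 1000 reads, 4 had a lower ratio than Ikzf2, namely Acod1, Gzma, Dgat2 and Tmem158. By the distance of log2 ratios over these 2 libraries, the 5 nearest to Ikzf2 among these protein-coding genes were Tmem158 (-4.41), Penk (-4.12), Trat1 (-4.02), Ccr8 (-3.79) and Dgat2 (-4.85). Penk, which encodes the enkephalin precursor, had 13737 reads in WT and 803 in Exon2KO. Ccr8, a chemokine receptor gene of tissue Treg cells, had 5168 and 378, and Trat1, which encodes an adaptor of the T cell receptor, had 2203 and 136.

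**Figure D4:**
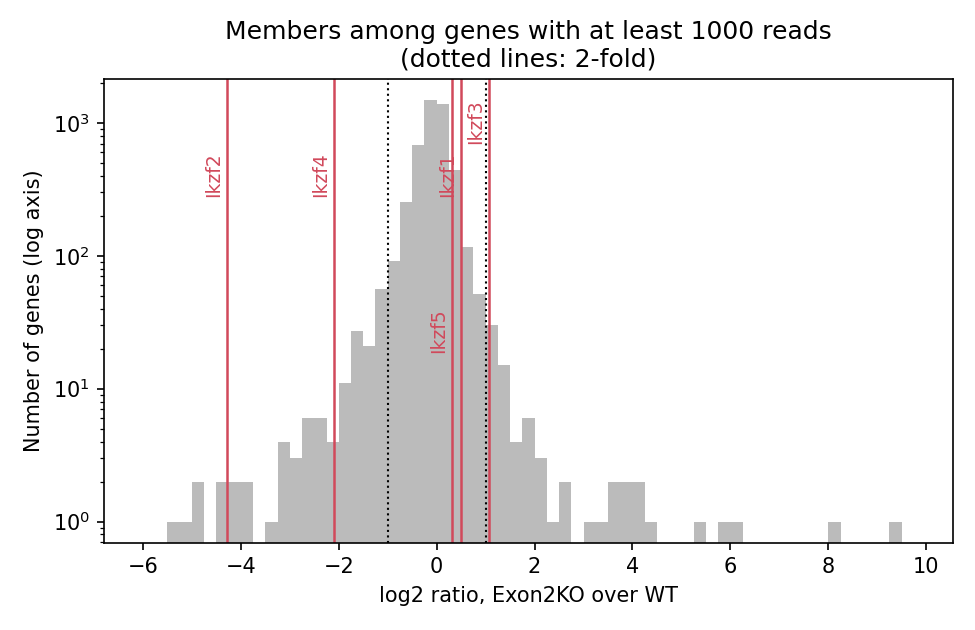
Histogram of log2 ratios (Exon2KO over WT) of the 4740 genes that had 1000 reads or more in sum (log count axis), with the 5 members as red lines and 2-fold as dotted lines. Ikzf2 at -4.29 and Ikzf4 at -2.09 lie in the lower tail, and Ikzf3 at 1.08 lies just past 2-fold; Ikzf1 and Ikzf5, drawn for comparison, have fewer than 1000 reads.

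Genes that act with the family were examined through lists. The NuRD complex combines the Chd remodellers with histone deacetylases, and 13 of its 14 listed genes were tested. None was called, and the median log2 ratio was -0.03, or 0.08 with total counts, against 0.0035 and 0.11 over all genes tested. Within it Hdac1, a deacetylase, had 2835 and 1990 reads (-0.54, -0.62 to -0.45) and Chd4, the Mi-2β ATPase, 998 and 1255 (0.30, 0.18 to 0.43). None of the 4 Sin3 and CtBP genes (median 0.17, or 0.27 with total counts) and none of the 11 genes of the BAF remodelling complex (0.05, or 0.16) was called. Ctbp1, the corepressor that binds Eos, had 1692 and 1584 reads (-0.12, -0.22 to -0.02). The CRL4-CRBN ubiquitin ligase, which degrades Ikaros and Aiolos when drugs of the thalidomide class are bound, and the kinase CK2, which phosphorylates Ikaros, made up a list of 8 genes with a median of 0.18, or 0.29 with total counts, and no call. Crbn, its substrate receptor, had 11359 and 10488 reads (-0.14, -0.18 to -0.10), and the adaptor gene Ddb1 had 1838 and 1000 (-0.90, -1.02 to -0.79). Over these 4 lists, the 36 tested genes spanned log2 ratios from -0.90 to 0.76, and none was called, against 17.5% of all genes tested and 4.73% of those with at least 1000 reads. A count of 0 is close to the second share.

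Of 29 other transcription factors of Treg cells, 28 were tested, 2 were called higher (Foxp3 and Maf) and 3 lower (Gata3, Tox and Lef1). Over all genes tested 17.5% were called, over those with at least 1000 reads 4.73%, and over the 244 other genes of that depth with a transcription factor family 6.97%. The median was -0.15 with TMM and -0.05 with total counts. Tox, a factor of T cell development and exhaustion, had 3005 and 1166 reads (-1.39, -1.49 to -1.29), and Lef1, a Wnt pathway factor of naive T cells, 498 and 108 (-2.21, -2.55 to -1.93). The ratio of Ikzf2 lay below all 28.

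Genes known from Helios-positive Treg cells were mostly lower. This list was written with earlier results on the same libraries known, so its direction is not independent evidence. Of its 10 genes, 8 were called lower and none higher, with a median of -2.03, against 8.14% called lower over all genes tested and 3.14% over those with at least 1000 reads. They include Nrp1, which encodes neuropilin-1, a surface marker of thymic Treg cells, with 656 and 121 reads (-2.45, -2.76 to -2.18), and Itgae, the CD103 integrin gene, with 1926 and 312 (-2.64, -2.83 to -2.48). Izumo1r, which encodes folate receptor 4, had 3713 and 1702 (-1.15, -1.24 to -1.07). By contrast Tigit, which encodes a coinhibitory receptor, had 9044 and 11042 reads (0.26, 0.22 to 0.30), so not all of these genes were lower.

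Of 7 genes known to be repressed by Ikaros factors in T cells, 5 were tested and none was called, with a median of -0.53. At the shares of 17.5% and 4.73% given above, a count of 0 among so few genes is no result about them. The Notch target Hes1 had 330 and 327 reads (-0.04, -0.26 to 0.19), and the Notch regulator Dtx1 had 333 and 192 (-0.81, -1.08 to -0.56). Tbx21, which encodes T-bet, had 242 and 157 (-0.64, -0.95 to -0.36). Il2, the target of Aiolos, had 1 read in WT and 6 in Exon2KO, too few to be tested, and Ptcra had 0 in both.

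**Figure D5:**
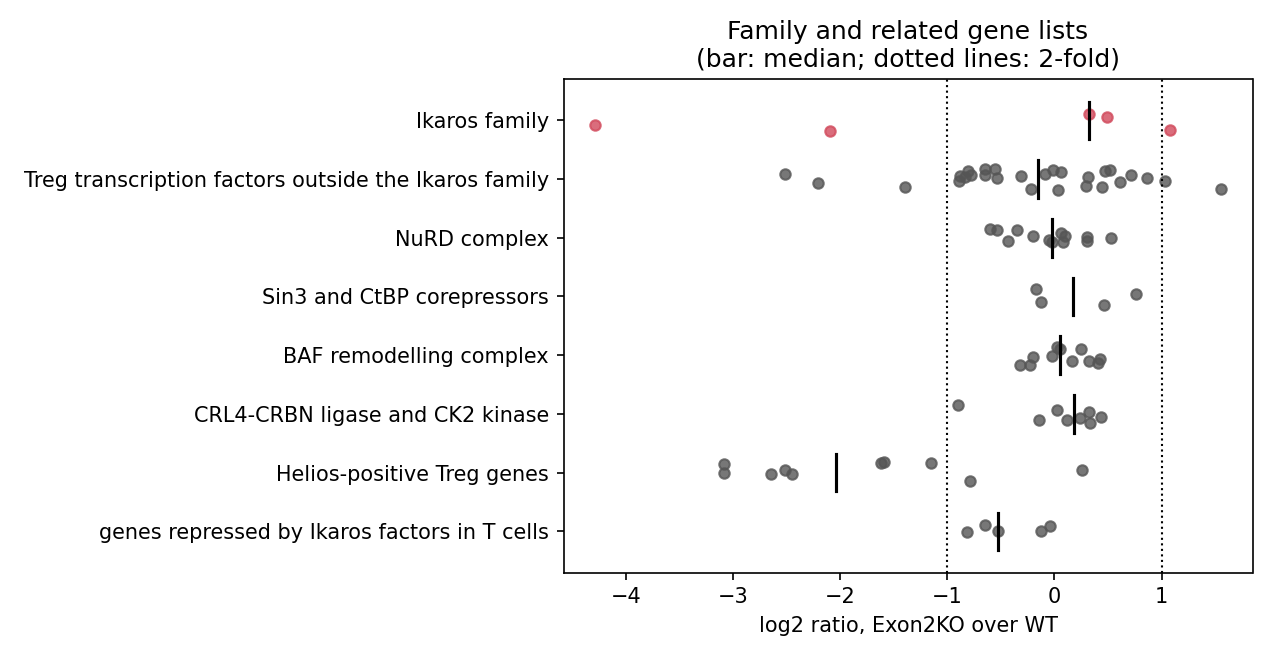
Log2 ratios (Exon2KO over WT) of the 5 members (red) and of the tested genes of 7 lists (grey), with a bar at each median and dotted lines at 2-fold. The genes of the NuRD, Sin3 and CtBP, BAF, and CRL4-CRBN and CK2 lists lie between -0.90 and 0.76, while Ikzf2 at -4.29 lies below every listed gene.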

How the data were processed

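RNA-seq counts of 1 WT and 1 Exon2KO library were analysed. RNA was isolated on Qiagen columns, and libraries were made with an NEBNext Ultra kit from 1 µg, per the labels' protocols. The submitters' processing notes name HISAT2 2.0.5, StringTie 1.3.3b, featureCounts 1.5.0-p3, DESeq2 1.16.1 and the build mm10, without roles; the strand setting is not given in the sources used here. The authors deposited raw counts per gene, which every value uses unless stated. The authors also deposited FPKM (levels per gene length and library size), a scaled count signal (not used here), log2 fold changes and p-values.

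Library sizes were scaled by TMM (edgeR 4.0.16, R 4.3.3; factors 0.964 for WT and 1.04 for Exon2KO), fitted on the whole table. Ratios took a prior count of 2, genes needed 10 reads over both libraries, and a call meant at least 2-fold. Quasi-likelihood testing in edgeR needs replicates, so no test of the genotypes was made. Exact binomial tests of reads and edgeR exact tests with assumed spreads were alternatives. Named genes are the members, some list genes and markers, overlapping loci, and the nearest protein-coding neighbours with at least 10 reads. The 5 protein-coding genes with at least 1000 reads nearest to Ikzf2 in ratio are named too, as are those with a lower ratio. Not every called list gene is named. The list genes printed, Nr4a2, the unnamed loci and the groups by transcription factor family were chosen after their values were seen. A gene and 1 planned list are not reported here. The members and lists were chosen with earlier results of these data known. Python 3.11.15 with scipy 1.17.1 was used, and the ratio script was tested on simulated data.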

Additional observations from a re-analysis of the deposited data

How the results depend on the processing

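Each member's ratio was recomputed under 8 alternatives (5 scalings, prior counts of 0.5 and 5, and the deposited FPKM), and no direction changed. The log2 ratio ranged from -4.29 to -4.14 for Ikzf2, from 1.08 to 1.23 for Ikzf3, from -2.10 to -1.94 for Ikzf4, from 0.49 to 0.65 for Ikzf1 and from 0.30 to 0.47 for Ikzf5. Values outside the counting interval were -4.14 for Ikzf2 and 1.23 for Ikzf3 with the Cd3 genes as library size, and 1.18 for Ikzf3 with total counts. These scalings move the median of all tested genes from 0.0035 to 0.15 and 0.11. Of the 12 alternatives for the count of called members, 9 gave 3. Among these 9, dropping the filter on low counts or raising it to 50 reads could not change the count, because all members pass both. A fold of 1.5 could only add members. A fold of 4 and an assumed BCV of 0.2 each left 2 (Ikzf2 and Ikzf4), and an assumed BCV of 0.4 left 1 (Ikzf2). Without length scaling, Helios held 60.0% of the family reads in WT and 4.30% in Exon2KO, as its longer transcript implies. The counts of called list genes stayed within 1.5 times under total counts and DESeq2 size factors. No paired analysis was possible because there is only 1 library of each genotype, and none can be left out. Depth limits Ikzf5 and the small loci.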
